A study of Rattus norvegicus with 97 samples.

Results

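Paqr8 and Tmem14a are genes of rat chromosome 9. In the nucleus accumbens shell their signal was lower in several rat lines bred for high alcohol consumption, for Paqr8 mainly in probe set 1397772_at. These genes are 2 of 14217 with a symbol on the array and were selected on their measured differences between the lines of each pair. All 5 probe sets that carry either symbol in the platform annotation are described here, 4 for Paqr8 and 1 for Tmem14a, out of 31042 probe sets tested. The line differences of these probe sets therefore come without a test. Expression was measured on 97 Affymetrix rat 3' arrays, 1 array per animal, in this region of the ventral striatum, which serves reward. The animals belonged to 5 pairs of lines, each with a line bred to prefer and drink alcohol and a line bred to avoid it: P/NP, HAD1/LAD1, HAD2/LAD2, AA/ANA and sP/sNP, where the first-named line is the preferring one. There were 9 animals of LAD1, of sP and of sNP, and 10 of each other line. The labels name no transgene and no treatment for any line. As background, HAD1/LAD1 and HAD2/LAD2 are replicate selections from the same founder stock. The labels do not give the sex, the age or the alcohol exposure of the animals, nor a batch or scan date. A comparison within a pair sets 1 bred line against another, so it cannot part selection for drinking from other differences that the lines carry.

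Paqr8 encodes membrane progestin receptor beta, a member of the PAQR family of membrane proteins that respond to progesterone and its neuroactive metabolites at the cell surface, in place of the nuclear progesterone receptor. It is found in brain neurons and oligodendrocytes, and membrane progestin receptors are described as acting through G proteins. Tmem14a encodes a small membrane protein of the mitochondrion, described in cultured cells as guarding the mitochondrial membrane potential against cell death signals. In the RefSeq order of genes (assembly GRCr8), both lie on chromosome 9 with 7 genes between them.

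The promoter of Tmem14a is shown because this was the gene most like Paqr8 1397772_at across the lines, although both genes were chosen on those line differences. It covers GRCr8 chr9:31136761-31137060 on the plus strand, from 250 bases before the RefSeq start of the gene to 50 after it, and capitals mark the CG dinucleotides.
Tmem14a promoter: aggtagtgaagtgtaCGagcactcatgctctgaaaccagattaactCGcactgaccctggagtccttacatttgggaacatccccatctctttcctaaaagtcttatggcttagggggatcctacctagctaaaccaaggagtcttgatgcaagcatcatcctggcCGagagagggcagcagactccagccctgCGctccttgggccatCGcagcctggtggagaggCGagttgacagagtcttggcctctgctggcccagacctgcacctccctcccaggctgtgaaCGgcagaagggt
The stretch holds 7 CG dinucleotides, equal to the median of all rat promoters of this length, and its GC content was 55.7% against a median of 51.7%. Of 7 motifs searched on both strands, none occurred in it. These were GGGCGG (GC box, in 33.1% of 33469 promoters), CCAAT (37.5%), TATAAA (14.2%), CACGTG (an E-box, 6.42%), TGACGTCA (a cAMP response element, 1.83%), TGACNNNGC (an antioxidant response element core, 12.1%) and TGTTCT (a steroid receptor element, 20.7%). No overlap between motifs was removed. No promoter of Paqr8 was analysed here.

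The values are log2 RMA signals as deposited, and over all arrays the probe set means had a median of 7.92. Paqr8 1388600_at was the brightest of its gene with a mean of 12.22, above 96.1% of probe sets. Paqr8 1397772_at had a mean of 9.55 (above 71.3%), whereas 1386716_at at 6.56 and 1375625_at at 5.83 lay below the median. Tmem14a 1391684_at had a mean of 11.74, above 93.7% of probe sets. Levels of different probe sets depend on their probes and say nothing about which transcript is more abundant. Where on the transcripts the 4 Paqr8 probe sets lie was not examined. Averaged over all arrays, the dissection carried its defining markers: of 13 spiny neuron probe sets, all had a mean of at least 10.32, among them Penk at 14.08 and Drd1 at 13.14. Single arrays varied, and the mean of these 13 was as low as 9.59 in a P animal.

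Of the 97 arrays, 8 departed from their line label in a score built from the 50 probe sets that best part the lines of a pair, from which Paqr8 and Tmem14a were left out. The score is 0 at the non-preferring and 1 at the preferring median. The other 89 arrays lay within 0.217 of their own end. The library labelled HAD1 animal 28 scored 0.0188 and the one labelled LAD1 animal 37 scored 0.987, so each was at the opposite end of its pair. The library labelled AA animal 19 scored 0.0580 and was closest to the sP line over all probe sets (mean r = 0.995), and the one labelled ANA animal 20 scored 0.882 and was closest to sNP (mean r = 0.996). The remaining ones were P animal 9 at 0.420, NP animal 9 at 1.04, sP animal 4 at 0.399 and sNP animal 4 at 0.470. No array was moved or relabelled, and results that rest on these arrays are given with and without them.

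Paqr8 1397772_at had the widest line difference of the 4 Paqr8 probe sets in each pair except P/NP. In HAD2 its lowest, median and highest animals were at 8.81, 9.28 and 9.79, and in LAD2 at 10.21, 10.80 and 11.18. Every HAD2 animal lay below every LAD2 animal, with a gap of 0.43 between the highest HAD2 and the lowest LAD2 animal. The difference of means (preferring minus non-preferring, log2) was -1.56 ± 0.14 (SE, n = 10 and 10), a 2.96-fold lower signal in HAD2. Such complete separation with the preferring line lower occurred in 0.445% of all probe sets in HAD2/LAD2. The share was 0.0193% in P/NP, 0.00644% in HAD1/LAD1, 0.0773% in AA/ANA and 0.222% in sP/sNP, and no Paqr8 or Tmem14a probe set belonged to it in these pairs with all arrays. Since the gene was chosen on these contrasts, nothing is read from the shares.

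In the HAD1/LAD1 pair, the replicate selection, the HAD1 animals ran from 8.94 over a median of 9.22 to 9.98, and the LAD1 animals from 8.87 over 10.69 to 11.56. The lines overlapped through the departing libraries: HAD1 animal 28 had the highest HAD1 value (9.98) and LAD1 animal 37 the lowest LAD1 value (8.87). The difference was -1.19 ± 0.26 (SE, n = 10 and 9) with all arrays and -1.47 ± 0.20 without these 2 arrays, or 2.77-fold. Without them, 8 of 9 HAD1 animals lay below every LAD1 animal, and HAD1 animal 22 at 9.95 stood 0.10 above the lowest LAD1 animal. Separation of all animals in that direction was found for 0.554% of probe sets in that setting.

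In sP/sNP, the sP animals ran from 8.41 over a median of 8.81 to 10.43 and the sNP animals from 9.63 over 10.26 to 10.58. The sP animals fell into separate sets, which makes the line mean a poor summary. Animals 1, 3, 5, 7 and 9 had values between 8.41 and 8.81, whereas animals 2, 8, 4 and 6 had 10.43, 10.09, 9.67 and 9.45. Animals 2 and 8, which do not depart from their label, were thus within the range of sNP. The difference of means was -1.05 ± 0.24 (SE, n = 9 and 9), or 2.07-fold, and -1.18 ± 0.25 without sP animal 4 and sNP animal 4. Of the 9 sP animals, 6 lay below every sNP animal.

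In the remaining pairs the lines overlapped broadly. P animals ran from 8.86 over a median of 9.13 to 9.86 and NP animals from 9.15 over 9.39 to 9.96, and the difference was -0.20 ± 0.12 (SE, n = 10 and 10). Of the 10 P animals, 5 lay below every NP animal. AA animals ran from 8.28 over 8.82 to 8.97 and ANA animals from 8.63 over 8.93 to 10.44, where the highest was the departing animal 20 and the next was 9.22. The AA/ANA difference was -0.37 ± 0.17 with all arrays and -0.23 ± 0.10 without AA animal 19 and ANA animal 20.

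The order of the line means of 1397772_at ran from AA (8.69) through ANA (9.05), HAD2 (9.19), sP (9.19), P (9.25), HAD1 (9.30) and NP (9.45) to sNP (10.24), LAD1 (10.49) and LAD2 (10.75). Only the gap of 0.79 between NP and sNP exceeded the pooled SD of its neighbours in this order (0.26). The 10 lines thus formed a lower set of 7 lines, with all 5 preferring lines and also NP and ANA, and a higher set of sNP, LAD1 and LAD2.

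**Figure D1:**
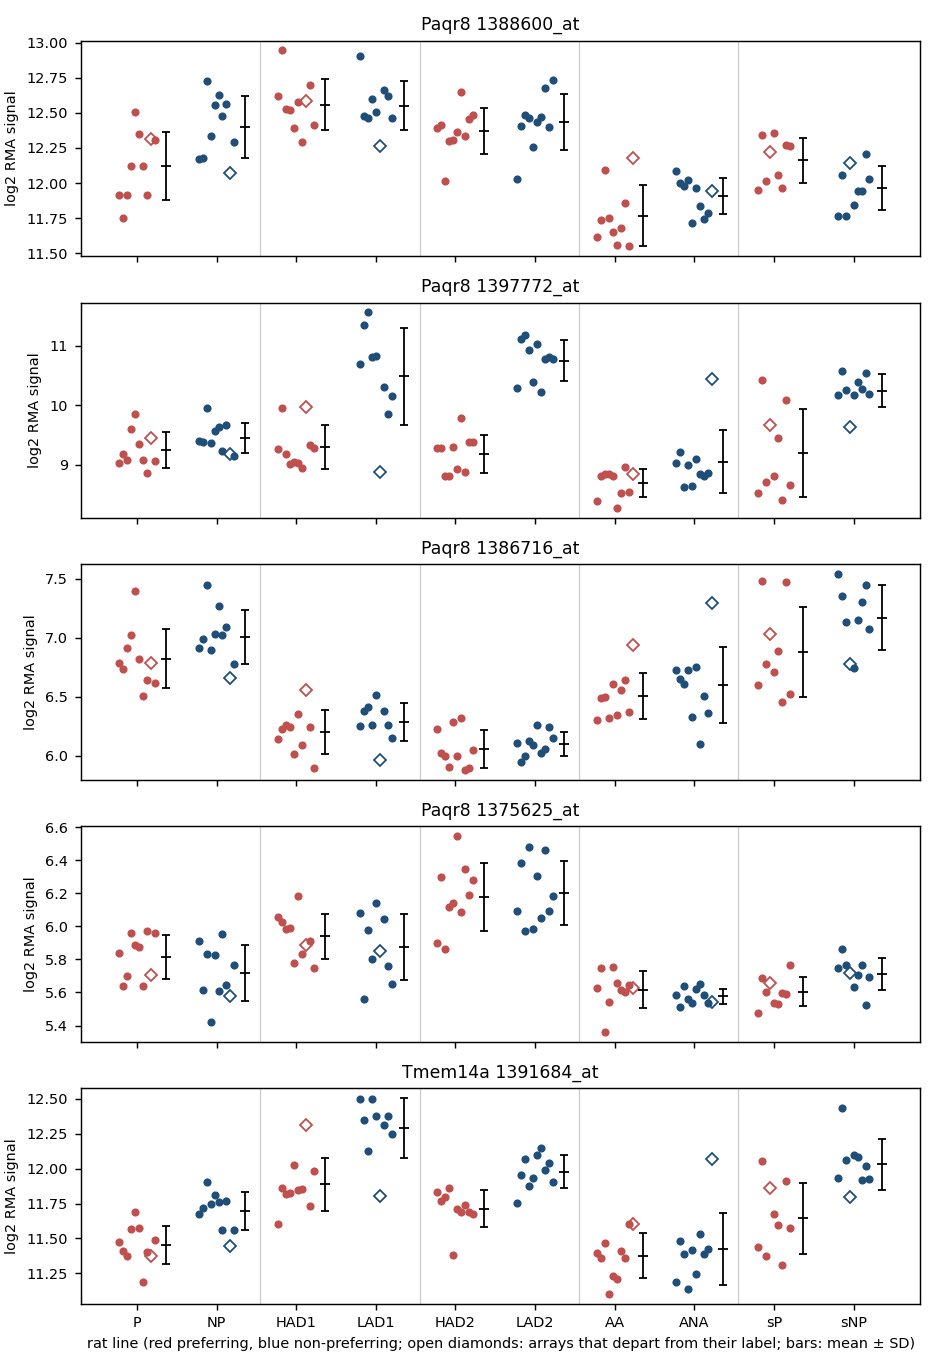
Log2 RMA signal of each of the 5 probe sets in every animal of the 10 lines, with preferring lines in red, non-preferring lines in blue, departing arrays as open diamonds and the mean ± SD of each line as a black bar. In 1397772_at all HAD2 animals lie below all LAD2 animals and the sP animals spread from 8.41 to 10.43, while 1388600_at overlaps between the lines of every pair.

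The brightest Paqr8 probe set, 1388600_at, did not follow this pattern. HAD2 animals ran from 12.01 over a median of 12.38 to 12.65 and LAD2 animals from 12.03 over 12.45 to 12.74, a difference of -0.06 ± 0.08 (SE, n = 10 and 10). HAD1 animals ran from 12.29 over 12.55 to 12.94 and LAD1 animals from 12.27 over 12.51 to 12.91, a difference of 0.01 ± 0.08 (n = 10 and 9) that turned to -0.03 ± 0.08 without the departing arrays. In the pairs where 1397772_at differed most, the animals of both lines therefore covered nearly the same range of 1388600_at. In sP/sNP the sign was opposite: sP animals ran from 11.95 over 12.22 to 12.36 and sNP animals from 11.76 over 11.95 to 12.21, a difference of 0.19 ± 0.07 (n = 9 and 9). P animals ran from 11.75 over 12.12 to 12.51 and NP animals from 12.07 over 12.40 to 12.73, a difference of -0.28 ± 0.10. AA animals ran from 11.55 over 11.71 to 12.18 and ANA animals from 11.71 over 11.96 to 12.09, a difference of -0.14 ± 0.08. The animals of the lines overlapped in all 5 pairs.

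The line means of 1388600_at ran from AA (11.77), ANA (11.91), sNP (11.97), P (12.12) and sP (12.16) to HAD2 (12.37), NP (12.40), LAD2 (12.44), LAD1 (12.55) and HAD1 (12.56). The 0.21 step between sP and HAD2 was the only gap between neighbours above their pooled SD, so the 4 HAD and LAD lines together with NP were the brighter set, whatever their preference. The dim probe sets differed less. Paqr8 1386716_at was lower in the preferring line in each pair, by 0.04 to 0.29 on the log2 scale, with the largest difference in sP/sNP (-0.29 ± 0.14). Without the departing arrays it was -0.16 ± 0.06 in place of -0.08 ± 0.08 in HAD1/LAD1, and -0.35 ± 0.15 in sP/sNP. In sP, animals 2 and 8 stood out in this probe set too, at 7.48 and 7.47, whereas the other 7 animals ran from 6.45 to 7.03. Paqr8 1375625_at, the dimmest, had differences between -0.11 (sP/sNP) and 0.10 (P/NP), and 2 of its 5 differences were negative. Over the 97 arrays, after removal of the line means, 1397772_at had a Pearson r of 0.70 with 1386716_at, 0.45 with 1388600_at and 0.07 with 1375625_at, and these values share the same arrays.

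Tmem14a, the mitochondrial membrane protein, had smaller but more even differences. HAD1 animals ran from 11.60 over a median of 11.85 to 12.32 and LAD1 animals from 11.80 over 12.35 to 12.50, and the difference was -0.40 ± 0.09 (SE, n = 10 and 9). The highest HAD1 and the lowest LAD1 values were again the departing libraries. Without them every HAD1 animal was below every LAD1 animal, and the difference was -0.51 ± 0.06, where 0.554% of all probe sets separated the lines in this way.

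HAD2 animals ran from 11.38 over 11.73 to 11.86 and LAD2 animals from 11.75 over 11.97 to 12.15, with a difference of -0.26 ± 0.06 (SE, n = 10 and 10). Of the LAD2 animals, 9 of 10 lay above every HAD2 animal, with LAD2 animal 11 (11.75) as the exception. P animals ran from 11.19 over 11.44 to 11.69 and NP animals from 11.45 over 11.73 to 11.90, with a difference of -0.24 ± 0.06 and 5 of 10 P animals below every NP animal. In sP/sNP, sP animals ran from 11.31 over 11.60 to 12.05 and sNP animals from 11.80 over 12.02 to 12.44, with a difference of -0.39 ± 0.10 (n = 9 and 9). Here 6 of 9 sP animals were below every sNP animal. AA animals ran from 11.10 over 11.38 to 11.61 and ANA animals from 11.14 over 11.40 to 12.07, with a difference of -0.05 ± 0.09. The highest ANA value was the departing animal 20, and without both departing arrays of this pair the difference was -0.0064 ± 0.066, so the AA and ANA animals could not be told apart in Tmem14a.

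The line means of Tmem14a ran from AA (11.37), ANA (11.43), P (11.45), sP (11.64), NP (11.69) and HAD2 (11.71) to HAD1 (11.89), LAD2 (11.98), sNP (12.03) and LAD1 (12.29). The gaps between HAD2 and HAD1 (0.17) and between sNP and LAD1 (0.26) exceeded the pooled SD of the neighbours, and the other gaps did not. The lines with the highest Tmem14a, LAD1, sNP and LAD2, were also the 3 highest in Paqr8 1397772_at, and AA and ANA were the 2 lowest in both. Since both genes were chosen on their line differences, this is a description only.

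In all, 1397772_at, 1386716_at and Tmem14a had a lower mean in all 5 preferring lines, 1388600_at in 3 and 1375625_at in 2. Of all probe sets, 3.24% were lower in every preferring line, and because the rule used this direction nothing is read from the count. The mean of the 5 differences was -0.87 for 1397772_at (SD 0.57, n = 5 pairs), -0.27 for Tmem14a (SD 0.14), -0.14 for 1386716_at (SD 0.10), -0.06 for 1388600_at (SD 0.18) and 0.02 for 1375625_at (SD 0.08). In bulk tissue, fewer cells of a type and less RNA per cell cannot be told apart.

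**Figure D2:**
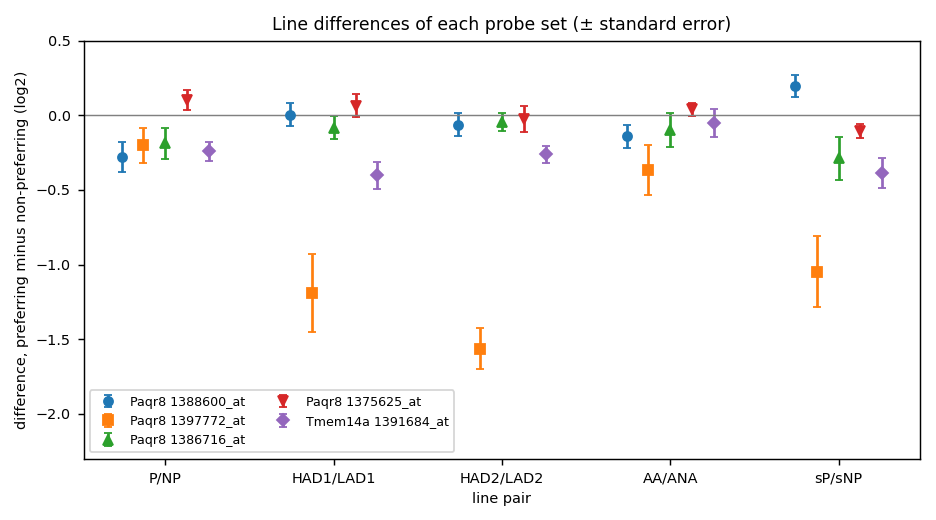
Difference between the preferring and the non-preferring line (log2) for each probe set in each of the 5 line pairs, with standard errors as bars. The 3 largest differences all belong to Paqr8 1397772_at (-1.56 in HAD2/LAD2, -1.19 in HAD1/LAD1 and -1.05 in sP/sNP), while Tmem14a lies between -0.40 and -0.05.

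Whether both genes also varied together among animals of the same line was examined on deviations from the line means, which removes the line differences that the rule used. With the brightest Paqr8 probe set, 1388600_at, Pearson's r with Tmem14a was 0.59 in P/NP (rho = 0.59, n = 20), 0.29 in HAD1/LAD1 (rho = 0.13, n = 19), 0.14 in HAD2/LAD2 (rho = -0.10, n = 20), 0.10 in AA/ANA (rho = -0.10, n = 20) and 0.46 in sP/sNP (rho = 0.28, n = 18). Of 15 such relations, 5 in pairs and 10 in single lines, none passed after Benjamini-Hochberg adjustment, and 4 had an unadjusted permutation p under 0.05. The 4 were P/NP (permutation p = 0.00788), NP (r = 0.71, rho = 0.79, permutation p = 0.0213), LAD1 (r = 0.80, rho = 0.77, exact permutation p = 0.0170, n = 9) and sP (r = 0.81, rho = 0.78, exact permutation p = 0.0126, n = 9). Each had an adjusted permutation p of 0.0799. Without the 2 animals farthest from the median of Paqr8, r was 0.53 in P/NP, 0.37 in NP, 0.54 in LAD1 and 0.69 in sP. Without the departing arrays r was 0.58 in P/NP, 0.58 in NP, 0.66 in LAD1, 0.82 in sP and 0.03 in HAD1/LAD1. In P/NP, 13 of 20 animals lay on the same side of their line mean in both genes.

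The line pairs differed in what the other Paqr8 probe sets showed. Over all 4 Paqr8 probe sets 58 relations were computed, and p-values in the following sentences are adjusted over these 58. In P/NP, 1397772_at had r = 0.76 with Tmem14a (adjusted permutation p = 0.00348, n = 20) and rho = 0.64 (adjusted permutation p = 0.0760), with 15 of 20 animals on the same side in both genes. Without the 2 farthest animals r was 0.62, and without P animal 9 and NP animal 9 it was 0.81. Within NP alone r was 0.89 (adjusted permutation p = 0.0116, n = 10) with rho = 0.88 (adjusted permutation p = 0.0673), and within P alone r was 0.66 (adjusted permutation p = 0.173) with rho = 0.39. The dim 1386716_at gave r = 0.80 in P/NP (adjusted permutation p = 0.00348), 0.82 in NP (adjusted permutation p = 0.0496, n = 10) and 0.88 in sP (adjusted exact permutation p = 0.0247, n = 9). Without the 2 farthest animals these were 0.68, 0.52 and 0.71, and in sP the value is limited by animals 2 and 8, which stand apart in this probe set. These 5 relations passed by Pearson's r, and none of the 58 passed by Spearman's rho after adjustment. In P/NP, NP animal 3 (9.96 in 1397772_at, 11.90 in Tmem14a) and P animal 5 (9.86 and 11.69) were the highest of their lines in both genes. As a description, 98.9% of all probe sets had a lower r with 1397772_at in P/NP than Tmem14a did over the same 20 arrays. This share was 99.97% for 1386716_at and 84.0% for 1375625_at. For the brightest probe set, 1388600_at, it was only 81.9%, so many other probe sets had a higher r with it than Tmem14a did.

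In HAD1/LAD1 and AA/ANA the departing arrays decided the value. For 1397772_at, r was 0.49 in HAD1/LAD1 (n = 19) with all arrays and -0.19 without HAD1 animal 28 and LAD1 animal 37. In AA/ANA it was 0.59 (n = 20) with all arrays and -0.19 without AA animal 19 and ANA animal 20, the latter at 10.44 in Paqr8 and 12.07 in Tmem14a. In HAD2/LAD2, the pair with the widest line difference of Paqr8, r was -0.08 (n = 20). In these 3 pairs no common variation of 1397772_at and Tmem14a within lines was detected once those arrays were left out.

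In sP the animals fell into separate sets in 1397772_at, so no r is given for this probe set in sP or in sP/sNP. The 4 sP animals of the higher set had Tmem14a at 12.05 (animal 2), 11.91 (animal 8), 11.86 (animal 4) and 11.60 (animal 6). The other 5 ran from 11.31 to 11.67. The 3 highest sP animals in Paqr8 1397772_at were thus the 3 highest in Tmem14a as well, in the same order, and of these only animal 4 departs from its label. Over all lines, r between the deviations of 1397772_at and Tmem14a was 0.57 with all 97 arrays, 0.35 with the 89 that do not depart and 0.09 with the 81 of these that are not sP.

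**Figure D3:**
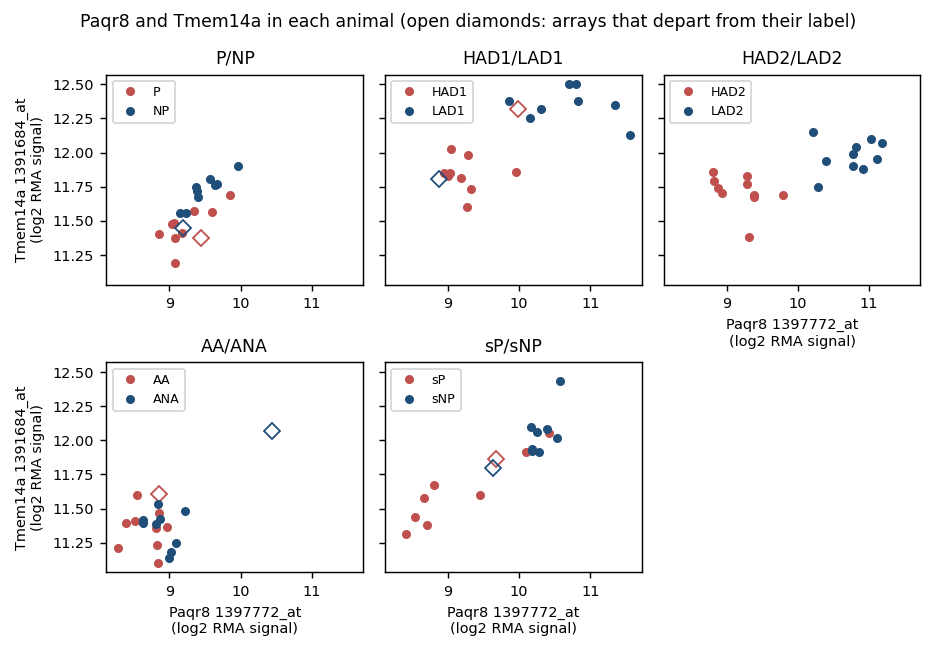
Tmem14a against Paqr8 1397772_at (both log2 RMA signal) in every animal, 1 panel per line pair, with preferring lines in red, non-preferring lines in blue and departing arrays as open diamonds. The sP animals 2, 8 and 4 lie near the sNP animals in both genes, and ANA animal 20 stands alone at 10.44 and 12.07.

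The genes whose pattern was most like each probe set were ranked by Pearson's r over probe sets with 1 symbol. Over the 10 line means, the gene most like Paqr8 1397772_at was Tmem14a (r = 0.86), followed by the glycolytic enzyme Pfkm (0.85), the ribosome assembly GTPase Lsg1 (0.80), the carbonyl reductase Cbr1 (0.80) and Cd33 (0.79). Paqr8 and Tmem14a were chosen together on their line differences, so nothing is read from their r over line means. Over the 97 deviations from line means the gene most like 1397772_at was again Tmem14a (r = 0.57), followed by Akr1b10, Apeg3, Prkar2a and Klf12 with r from 0.50 to 0.52. This place rested on the departing arrays. Over the 89 that do not depart, r was 0.35 and Tmem14a ranked 1070 from the highest among all probe sets. The rankings of the other probe sets were not repeated without the departing arrays. Tmem14a was most like the glutathione transferase Gsto1 (0.91), the intramembrane protease Sppl2a (0.91), Nek1 (0.89), Rttn (0.89) and the phospholipase Pld1 (0.88) over line means. Over deviations, Tmem14a was most like the mitochondrial ribosomal protein Mrps14 (0.57), with Paqr8 1397772_at next (0.57) and then Grhl3, Cul4b and Shld2 (0.52 to 0.53). Paqr8 1388600_at had other companions: Acss3, C1h19orf47, Rsu1, Slc29a3 and Hhex over line means (0.96 to 0.97), and Cpsf2, Snx5, Ptdss1, Pgm1 and Polr2m over deviations (0.80 to 0.84). Its r with Tmem14a was 0.66 over line means. All these values share the same arrays.

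The genes next to Paqr8 and Tmem14a on the chromosome were tested, since the rule did not use them. The window of the 7 genes between them and 20 on each side held 47 genes, of which 9 had a probe set, 13 probe sets in all. None of the 13 was called (limma, adjusted p under 0.05 over all probe sets) in P/NP, HAD1/LAD1 or AA/ANA, where 1.05%, 1.2% and 2.35% of all probe sets were called. In HAD2/LAD2 1 was called, against 4.6% of all, and in sP/sNP 2 were called, against 12.9%. Of the measured genes between Paqr8 and Tmem14a, Tram2 and Gsta3l1 were not called in any pair, nor were Mcm3 and Il17f before Paqr8 or Gsta3 just after Tmem14a. These probe sets were dim, with means of 7.30, 4.72, 6.45, 4.38 and 4.52 in that order. Only the called probe sets, Gsta1 at 11.01 and Kcnq5 1379510_at at 12.34, lay above the median of 7.92. The absent calls therefore do not show that the dim neighbours were equal between lines.

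Gsta1, a glutathione transferase 5 genes beyond Tmem14a, had sP animals from 11.05 over a median of 11.15 to 11.43 and sNP animals from 11.34 over 11.57 to 11.65. Its difference in sP/sNP was -0.32 ± 0.06 (limma adjusted p = 0.00371, n = 9 and 9). Other genes of this family, Gsta3l1, Gsta3 and Gsta6, lie in the window. Their sequences were not compared, so whether the probe set reads more than 1 of these genes was not tested. Kcnq5, a subunit of M-type potassium channels 12 genes beyond Tmem14a, had HAD2 animals from 12.40 over 12.50 to 12.80 and LAD2 animals from 11.63 over 12.21 to 12.39 in probe set 1379510_at. The difference was 0.45 ± 0.09 (limma adjusted p = 0.00418, n = 10 and 10) and the animals did not overlap, with the preferring line higher, opposite to Paqr8 and Tmem14a in the same pair. In sP/sNP the same probe set was lower in sP, by -0.75 ± 0.22 (limma adjusted p = 0.0347), and its 5 differences were unequal between pairs (limma F test, adjusted p = 0.0287). The other 2 Kcnq5 probe sets were not called. With the marker index described below as a covariate, the sP/sNP differences were -0.19 (limma adjusted p = 0.202) for Gsta1 and -0.04 (adjusted p = 0.998) for Kcnq5. The HAD2/LAD2 call of Kcnq5 was lost in a single fit of all 10 lines (adjusted p = 0.300).

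**Figure D4:**
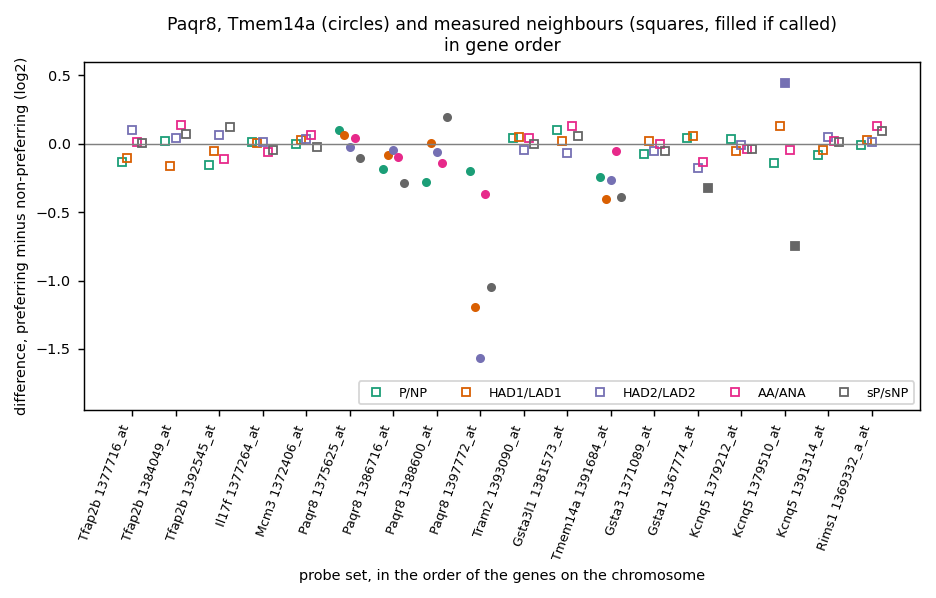
Difference between the preferring and the non-preferring line (log2) in each of the 5 line pairs for Paqr8 and Tmem14a (circles) and for the 13 measured neighbouring probe sets (squares, filled where called by limma), in the order of the genes on the chromosome. The neighbours between and beside both genes lie near 0 but are dim, with means below the median of all probe sets. The called squares are Gsta1 in sP/sNP and Kcnq5 1379510_at in HAD2/LAD2 and sP/sNP.

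Relatives and pathway partners of both genes were read from 4 lists. Of the PAQR family and other progestin receptors, 12 of 13 listed genes were measured, with 16 probe sets. None was called in P/NP, HAD1/LAD1, HAD2/LAD2 or AA/ANA. In sP/sNP 2 were called lower and 5 higher in sP, where 12.9% of all probe sets were called, with a list median difference of 0.09 against 0.00 for all probe sets. The markers of spiny neurons also differed in this pair, as given below, and the medians of the other 3 lists in sP/sNP were 0.04 for neurosteroid synthesis, -0.04 for the G protein partners and 0.02 for mitochondrial cell death. Paqr7, membrane progestin receptor alpha, was higher in sP by 0.59 ± 0.15 (limma adjusted p = 0.0230). Adipor2, an adiponectin receptor of the family, was higher by 0.28 ± 0.07 (adjusted p = 0.0278) and 0.31 ± 0.09 (adjusted p = 0.0364) in a pair of its 3 probe sets. Mmd, a PAQR family member of macrophages and brain, was lower by -0.45 ± 0.12 (adjusted p = 0.0302). The nuclear progesterone receptor Pgr had a mean of 5.66, and Pgrmc1, a heme-binding membrane progesterone receptor component, had a mean of 13.39.

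Among neurosteroid synthesis genes, 30 of 36 were measured with 40 probe sets. In HAD2/LAD2 the reductase Akr1c19 was lower in HAD2 by -0.30 ± 0.08 (limma adjusted p = 0.0227) and Hsd17b7 was higher by 0.37 ± 0.09 (adjusted p = 0.0140). In sP/sNP Hsd17b4 was higher in sP by 0.36 ± 0.07 (adjusted p = 0.00749) and Hsd3b7 lower by -0.35 ± 0.09 (adjusted p = 0.0228), and 3 of 40 were called in all. The background was 4.6% of all probe sets in HAD2/LAD2, where 2 of 40 were called, and 12.9% in sP/sNP, so these counts are near or below the background. None was called in the other 3 pairs.

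Of the G protein partners, 15 of 19 genes were measured with 28 probe sets. In AA/ANA Gnb1, a G protein beta subunit, was higher in AA by 0.56 ± 0.08 in 1375705_at (limma adjusted p = 0.000220), while its other probe set 1367731_at had a difference of -0.12 ± 0.05 (adjusted p = 0.322). In sP/sNP 8 were called lower and 6 higher in sP, where 12.9% of all probe sets were called. Among these were Gabrd, the GABA-A receptor delta subunit on which neurosteroids act, at -0.62 ± 0.15 (adjusted p = 0.0218), Gnb2 at -0.21 ± 0.05 (adjusted p = 0.0277) and the striatal stimulatory alpha subunit Gnal at -0.57 ± 0.16 (adjusted p = 0.0307). Of the mitochondrial cell death genes, 24 of 28 were measured with 37 probe sets, and 1 was called lower and 4 higher in sP/sNP and none in the other pairs. Such a count, 5 of 37, is close to the 12.9% of all probe sets called in sP/sNP. The mitochondrial pore regulator Ppif was higher in sP by 0.54 ± 0.11 (adjusted p = 0.00673), the death effector Bcl2l11 by 0.54 ± 0.16 (adjusted p = 0.0362) and the outer membrane channel Vdac2 by 0.16 ± 0.05 (adjusted p = 0.0448), and Bad was lower by -0.11 ± 0.04 (adjusted p = 0.0490).

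Markers of the dissected tissue differed in the sP/sNP comparison, and whether its makeup of cells differed was not tested. A marker index, the mean of 13 spiny neuron markers minus that of 8 markers of pallidum, septum and basal forebrain, was lower in sP than in sNP by -1.30 (permutation test, adjusted p = 0.0388, n = 9 and 9), with the highest sP animal at 4.27 and sNP animals from 3.23 to 4.77. In this pair, where 12.9% of all probe sets were called, 11 of 13 spiny neuron markers were called lower in sP. Of the 8 markers of pallidum, septum and basal forebrain, 1 was called higher in sP and 0 lower. The mean of the spiny neuron markers ran from 10.23 to 12.34 in sP and from 11.65 to 12.60 in sNP. With the index as a covariate, the sP/sNP difference of Paqr8 1388600_at was 0.0061 in place of 0.19, that of 1397772_at was -1.28 in place of -1.05 and that of Tmem14a was -0.51 in place of -0.39. The 29 calls of the 4 lists in sP/sNP became 0 with that covariate. The share of all probe sets called with the covariate is not given here, so nothing is read about the lists. Adcy5 is both a listed G protein partner and a spiny neuron marker of the index. In the other pairs the index differed between lines by no more than 0.35 in size, with adjusted permutation p from 0.467 to 0.943. Among animals of a line it spread most in P (SD 1.68, from -0.03 to 4.86). The SD was 1.18 in sP and 1.14 in NP, against 0.18 in HAD1 and 0.15 in LAD1. Over the 97 deviations from line means, r with the index was -0.66 for 1388600_at, -0.27 for 1397772_at and -0.29 for Tmem14a. With the mean of 7 oligodendrocyte markers r was 0.52 for 1388600_at, 0.20 for 1397772_at and 0.12 for Tmem14a. In HAD2/LAD2, where 4.6% of all probe sets were called, 5 of these 7 markers were called lower in HAD2. Their mean ran from 11.26 to 11.64 in HAD2 and from 11.50 to 12.23 in LAD2. Their part in the HAD2/LAD2 differences of Paqr8 and Tmem14a was not tested. Within P/NP, with the index regressed out, r with Tmem14a was 0.31 for 1388600_at, 0.65 for 1397772_at and 0.72 for 1386716_at.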

How the data were processed

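Each array's label, line and animal number were taken from the labels. Trizol and RNeasy columns were used for RNA extraction, per the labels' protocols, and 25 ng of total RNA went through the Affymetrix protocol with 2 cycles of amplification. Per the submitters' processing notes, the authors summarised signals with RMA (version not given in the sources used here), and the deposited log2 values were used with no further scaling. Array medians lay between 7.82 and 8.02. Of 31099 probe sets, 57 controls were left out. Symbols come from the platform annotation, and neighbours and the promoter from RefSeq tables (GRCr8).

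Each pair of lines was fitted with limma 3.58.1 in R 4.3.3 (lmFit, eBayes, two-sided), tested on simulated data, with Benjamini-Hochberg adjustment over 31042 probe sets. Precision is limited by how many arrays a line has. The labels name no separate litters, so p-values measure the spread between these animals. Correlations and the marker index used two-sided permutation tests (100000 resamples, or exact with 9 animals). The members and lists were chosen with earlier results of these data known. Named genes were all member probe sets, neighbours called in at least 1 pair, up to 4 called probe sets per list with the smallest adjusted p, and the 5 genes most alike, without provisional symbols. Other normalization, filters and fits, the covariate and leaving out departing arrays were alternatives. Departing arrays lay over 0.3 from their own end of the score, a limit set after the data were seen.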

Additional observations from a re-analysis of the deposited data

Results flagged for a closer look

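Among the 5 probe sets and 10 lines, 50 groups were examined for an animal far from the others of its line, and 6 were found, where chance alone gives about 1 in 20 groups. Of the 6, 4 were arrays that depart from their label. In Paqr8 1397772_at, ANA animal 20 stood at 10.44 with the next animal at 9.22, and sNP animal 4 stood lowest at 9.63 with the next at 10.17. In Paqr8 1386716_at, AA animal 19 was highest at 6.94, with the next at 6.64. In Tmem14a, ANA animal 20 was again highest, at 12.07 with the next at 11.53. Animals that do not depart from their label were HAD2 animal 5, lowest in Tmem14a at 11.38 with the next at 11.68, and sNP animal 2, highest in Tmem14a at 12.44 with the next at 12.10.

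The neighbouring Kcnq5, in probe set 1379510_at, had line differences that were unequal between the 5 pairs (limma F test, adjusted p = 0.0287), higher in HAD2 and lower in sP than in their counterparts.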

How the results depend on the processing

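Of 130 alternative values of the member differences, 129 moved by less than the spread between animals. The sP/sNP difference of Paqr8 1388600_at moved to 0.0061 with the marker index as covariate. The 130 include 25 values from a single fit of all lines and 10 with a replicate block. Both fits return the same difference of means, so these values could not move and test nothing. Neighbours called changed to 0 in HAD2/LAD2 with a single fit of all lines and, in sP/sNP, to 0 with the marker index as covariate. With a window of 60 genes on each side, which was chosen after seeing the data, 4 of 38 probe sets were called in sP/sNP. Of all probe sets, 12.9% were called in that pair. List calls changed to 2 in HAD1/LAD1 (Gnas and Gng2) and to 3 in AA/ANA (2 probe sets of Gnb1, and Bad) without the departing arrays, to 5 in HAD2/LAD2, 3 in AA/ANA and 0 in sP/sNP with the marker index, and to 1 in HAD2/LAD2 and 2 in AA/ANA with a single fit. The shares of all probe sets called in these alternative fits are not given here, so nothing is read from the changed counts. Correlations that passed only under an alternative were, for 1397772_at, 0.76 in P/NP and 0.89 in NP, and for 1386716_at 0.80 in P/NP, 0.66 in sP/sNP, 0.78 in P, 0.82 in NP and 0.88 in sP. Without the departing arrays, 1397772_at gave 0.81 in P/NP and 0.92 in NP. With the marker index regressed out, r was 0.84 in sP for 1388600_at, 0.65 in P/NP and 0.87 in NP for 1397772_at, and 0.72 in P/NP, 0.70 in P and 0.74 in NP for 1386716_at. These alternatives were adjusted within each setting alone, and the cause of these changes was not tested. With the animal number as a replicate block, the Paqr8 1397772_at difference stayed at -0.20 in P/NP and -1.05 in sP/sNP, as it must in such a fit. List calls in sP/sNP were 30 in place of 29, and the counts of neighbours called were equal. The numbers are shared only in these pairs. Same-numbered animals correlated above 0.1 in 6 of 10 pairs in P/NP (r from -0.59 to 0.77) and 5 of 9 in sP/sNP (r from -0.22 to 0.56). Of these, 4 and 2 animals correlated best with their own number. The labels do not say whether a shared number marks a shared processing step, and this was not tested.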
